A study of Mus musculus with 2 samples.

Results

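BCL11A and BCL11B are paralogous zinc finger transcription factors, and both act mainly as repressors by drawing the nucleosome remodelling and deacetylase complex, NuRD, to their target genes. BCL11B marks T lineage commitment and stays on in thymocytes, whereas BCL11A is known from B cells, progenitors and the silencing of fetal globin. NuRD joins an ATP-driven chromatin remodeller (CHD4) and a histone deacetylase (HDAC1 or HDAC2) on a scaffold of MTA1, MTA2 or MTA3. The histone chaperones RBBP4 and RBBP7 hold the complex to histones, and RBBP4 also binds the short N-terminal motif by which BCL11 proteins dock. The results below concern the RNA of Bcl11a, Bcl11b and 8 NuRD genes, named Chd4, Mta1, Mta2, Mta3, Hdac1, Hdac2, Rbbp4 and Rbbp7. They were found by accession or symbol among 41174 array probes, and all 10 genes were present, with 20 probes of 1 spot each, out of 27591 gene names on the array. Rit1 is an old synonym of Bcl11b but the current symbol of another gene, whose probes were left out.

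The RNA came from double-positive (DP) thymocytes, the CD4+ CD8+ stage before positive selection. The deficient samples were from Bcl11bF/FCD4Cre/Tcra-/- mice, in which Cre under Cd4 control recombines a floxed Bcl11b gene, and the controls from TCRa-/- mice. Both groups thus lacked Tcra, so their thymocytes could form no alpha beta receptor and stopped before selection. Each of 2 arrays, labelled as biological replicates, compared 1 deficient sample in Cy5 with 1 control sample in Cy3. Dyes were not swapped, so a dye effect and the genotype cannot be told apart. Nor can an effect of Cre, which the control label does not name. The labels give neither the mice per sample, nor their ages, nor the deleted part of Bcl11b, nor how DP cells were obtained.

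Each value is the log2 of deficient over control signal, with the mean of both arrays ± SE from limma (n = 2 arrays). Signals given are those after background correction and loess normalisation within each array, in scanner units, and were not scaled between arrays. Ratios compare signals within an array and a probe. Where signals of a probe are set side by side across arrays, differences in brightness between the arrays are part of the comparison. The sums over marker lists are dominated by the brightest probes. Between 50.5% and 56.5% of the 43379 spots per array that were not controls were well above background in each channel. After the filter on dim probes 21539 probes were tested, with a median mean ratio of 0.00, and the ratios of a probe differed between arrays by a median of 0.13. All 15 DP markers, Cd4, Cd8a and Rag1 among them, were well above background in both groups. Of these DP markers 11 were lower and 4 higher on both arrays, against 38.5% and 36.4% of all genes, with a median of -0.24 that turned to 0.16 with median centring in place of loess. At an unadjusted p under 0.05 limma had 8 lower (14% of all genes) and 3 higher (15%), and after adjustment 0. Separate-channel limma called 6 of the 15 (5.72% of all probes). Also well above background in both groups on both arrays were 4 of 6 B cell and 6 of 8 macrophage markers. Macrophage markers had a median of 0.31, with 6 of 8 higher and 1 lower on both arrays. They summed to 103549 and 103525 in the deficient samples and 82978 and 35254 in the controls, and Lyz2, lysozyme, alone gave 86231 and 91722 of the former and 69741 and 27220 of the latter. Stromal, endothelial and epithelial markers had a median of 0.69 over 8 kept genes, with 5 higher and 2 lower on both arrays. The 5 higher ones were stromal or endothelial (Dcn, Col1a1, Col3a1, Pdgfrb and Pecam1). The epithelial genes Epcam, Krt5 and Krt8 had negative means of -0.41, -0.27 and -0.30, but Krt8 read -0.84 on replicate 1 and 0.25 on replicate 2. Over all 10 genes of this list, kept or not, the sums were 29645 and 18532 in the deficient samples and 29109 and 9737 in the controls. NK cell markers had a median of 0.46, with 5 of 7 kept genes higher and 1 lower on both arrays. Over all 8 genes of the NK list, kept or not, the sums were 29851 and 29533 in the deficient samples and 16124 and 14883 in the controls. Hba-a1, a haemoglobin gene of red cells, read -0.42 on replicate 1 and 2.26 on replicate 2. The part that these marker differences had in the results below was not tested. In bulk RNA, fewer cells that express a gene and less RNA per cell cannot be told apart.

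Of the 20 probes, 16 from 9 genes passed the filter, and Hdac2 had none among them. After Benjamini-Hochberg adjustment over all probes, limma called 0 of the 16 at 0.05, as it called 0% of all probes tested, with adjusted p from 0.0957 to 0.871. At an unadjusted limma p under 0.05 there were 6, or 5 higher and 1 lower, where 27% of all probes passed (14% higher and 13% lower). On both arrays 9 of the 16 were higher and 4 lower, against 36.6% and 36.9% of all probes, and 3 changed sign between arrays. The median over the 16 was 0.19. Separate-channel limma, which models both channels in place of their ratio, called 4 of the 16 (5.72% of all probes). It alone used probe intensities scaled between arrays by quantiles. Median centring in place of loess called 3 of the 16 (4.38% of all probes). Only 1 probe, of Bcl11b, differed at least 2-fold on both arrays, as 0.891% of all probes did. Within these limits Bcl11b stood lowest, both probes of Mta3 highest, and Rbbp4, Rbbp7 and Mta1 slightly above the control on each array.

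**Figure D1:**
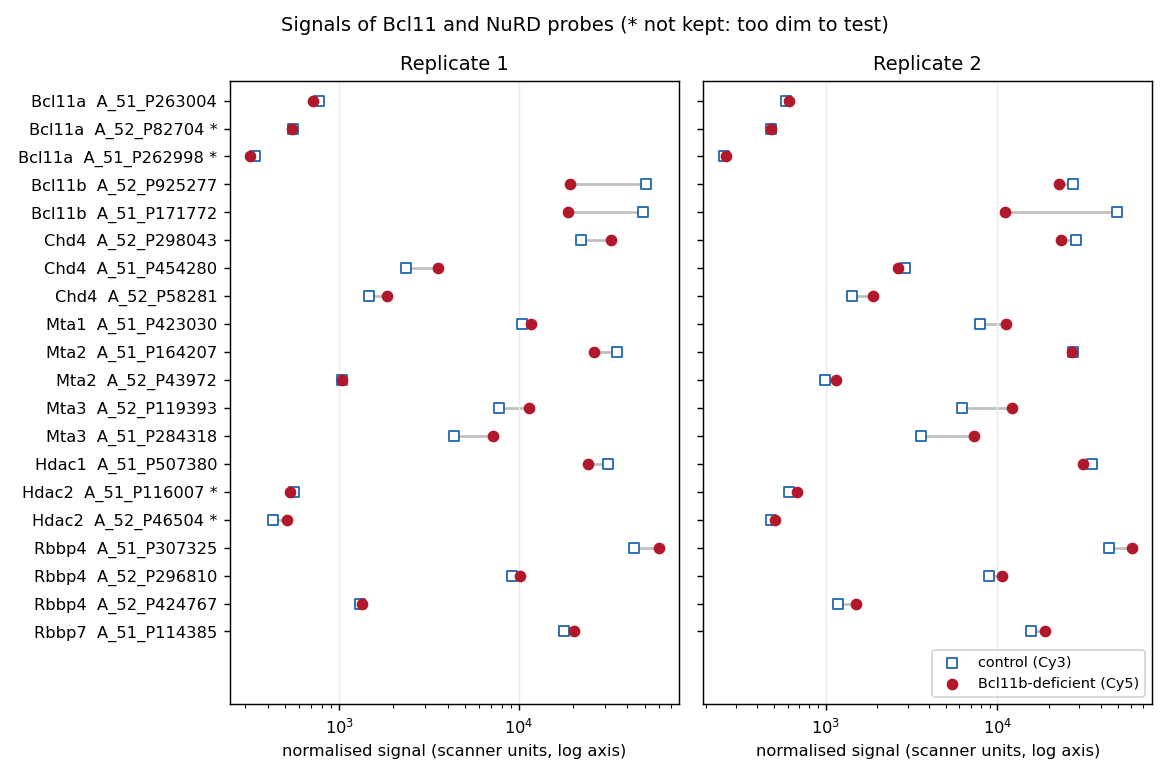
Normalised signal (scanner units, log axis) of each of the 20 probes in the deficient (filled circles) and control (open squares) channel, 1 panel per array, with grey lines joining the channels. Bcl11b probes lie to the left of their controls and Mta3 probes to the right on both arrays, and the probes of Bcl11a and Hdac2 lie at the dim end.

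Bcl11b, the gene targeted in the deficient mice, has 2 probes on the minus strand of chromosome 12, with starts 4915 bases apart in mm8. Probe A_51_P171772 lies at chr12:108363444-108363503. Its signal was 18801 in the deficient and 48626 in the control sample of replicate 1, and 11089 and 49447 in those of replicate 2. Both deficient values were thus below both controls, at 38.7% and 22.4% of the control on their own array. The mean ratio was -1.76 ± 0.22 (limma adjusted p = 0.0957), and separate-channel limma gave an adjusted p of 0.0347. Probe A_52_P925277, at chr12:108358529-108358588, read 19100 against 50404 on replicate 1 and 22790 against 27595 on replicate 2. The deficient sample was again the lower of each pair, but on replicate 2 it kept 82.6% of the control. Its mean was -0.84 ± 0.31 (limma adjusted p = 0.204), and without replicate 1 the ratio was -0.28, without replicate 2 -1.40.

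On replicate 1 the ratios of these probes differed by 0.03, and on replicate 2 by 1.88. Among 3295 genes with 2 kept probes the median gap on replicate 2 was 0.15, and 0.182% had a gap as large as that of Bcl11b. The control signal of A_52_P925277 was 50404 on replicate 1 and 27595 on replicate 2, while that of A_51_P171772 was 48626 and 49447. Neither probe was marked as an outlier on either array. Whether either probe lies in the deleted part is not given by the labels, so residual signal is no measure of intact Bcl11b RNA.

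RefSeq's promoter table (GRCm38.p6) holds 8 of the 10 genes, with 9 windows that run from 250 bases before a transcript start to 50 after it. The windows of Bcl11b (chr12:108003365-108003664, minus strand), Rbbp4 (chr4:129335321-129335620, minus strand) and Rbbp7 (chrX:162760122-162760421, plus strand) are shown, as the gene with the lowest ratios beside the partner pair that was higher on both arrays. Capitals mark the GC box GGGCGG, bound by SP family factors, on either strand.
Bcl11b: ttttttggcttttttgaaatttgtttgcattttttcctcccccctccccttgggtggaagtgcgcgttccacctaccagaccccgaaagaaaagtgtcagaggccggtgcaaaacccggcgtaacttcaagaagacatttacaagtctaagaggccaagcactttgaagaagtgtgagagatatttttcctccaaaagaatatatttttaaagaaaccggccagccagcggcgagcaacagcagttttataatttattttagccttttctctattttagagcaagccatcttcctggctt
Rbbp4: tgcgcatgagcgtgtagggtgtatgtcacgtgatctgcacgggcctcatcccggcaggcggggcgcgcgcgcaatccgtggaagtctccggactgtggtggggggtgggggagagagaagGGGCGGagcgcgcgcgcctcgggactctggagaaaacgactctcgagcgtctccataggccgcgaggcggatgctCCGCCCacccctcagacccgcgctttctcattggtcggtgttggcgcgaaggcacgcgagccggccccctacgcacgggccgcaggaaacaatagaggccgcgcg
Rbbp7: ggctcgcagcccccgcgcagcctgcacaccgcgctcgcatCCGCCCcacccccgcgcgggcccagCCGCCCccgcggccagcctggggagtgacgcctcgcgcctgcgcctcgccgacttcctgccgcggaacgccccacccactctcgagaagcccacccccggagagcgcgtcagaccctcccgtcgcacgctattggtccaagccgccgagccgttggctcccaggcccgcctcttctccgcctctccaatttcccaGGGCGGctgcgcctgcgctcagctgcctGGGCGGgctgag
The Bcl11b window holds 0 GC boxes and is 43% G and C, that of Rbbp4 holds 2 and is 68.7%, and that of Rbbp7 holds 4 and is 75.7%. Over all 32851 windows the median was 52.7%, and 35.7% held the motif. Of the 8 genes, 7 had a GC box, all but Bcl11b. The letters TGACCA, the motif described for the BCL11A zinc fingers, were in 0 of the 9 windows on either strand and in 13.6% of all windows. These matches describe the letters and not binding.

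Bcl11a, the paralogue of Bcl11b, was measured near the background by 3 probes on chromosome 11. The brightest, A_51_P263004 at chr11:24072868-24072927, read 716 in the deficient and 768 in the control sample of replicate 1, and 611 and 588 in those of replicate 2. The groups overlapped, and the mean ratio was -0.02 ± 0.08 (limma adjusted p = 0.871). Before any correction its control signals were 988 and 838, where negative controls had medians of 696 and 732 in that channel. Probe A_52_P82704 was well above background in 1 of the 4 samples, the deficient one of replicate 1, and A_51_P262998 in 0 of 4. Their ratios lay between -0.10 and 0.06. A rise of Bcl11a in the deficient cells was thus not detected, at signals this close to those of negative controls. B cell markers, relevant since B cells express Bcl11a, had a median of -0.34 over 4 kept genes.

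**Figure D2:**
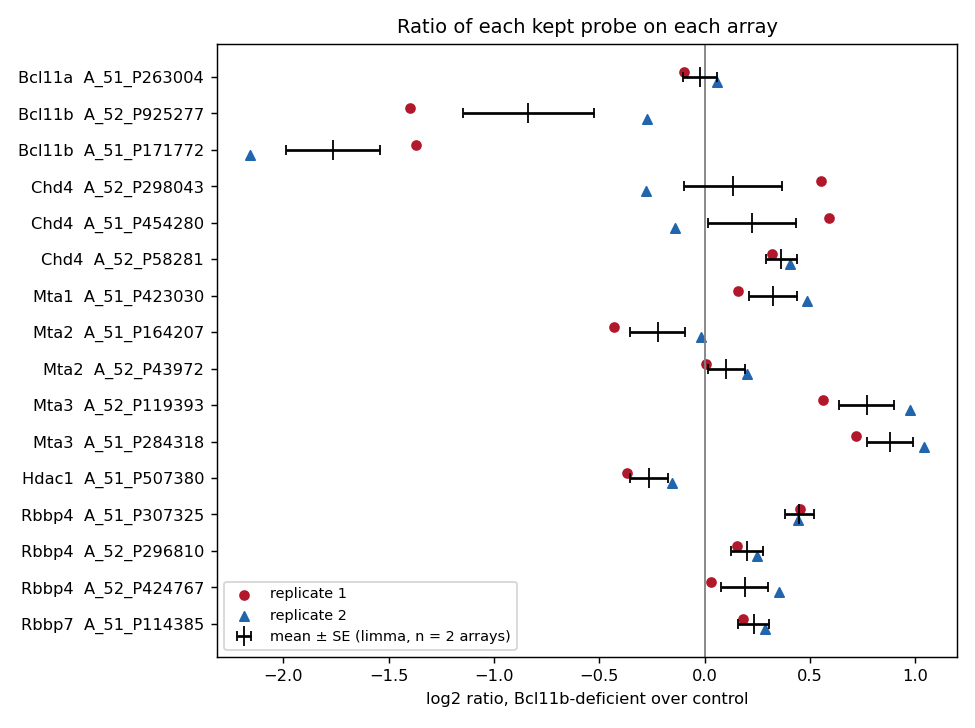
Log2 ratio of deficient over control for each of the 16 kept probes on replicate 1 (circles) and replicate 2 (triangles), with the mean and its SE from limma (bars, n = 2 arrays). The Bcl11b probes part on replicate 2, 2 of the 3 Chd4 probes lie on opposite sides of 0 on the arrays, and the Mta3 and Rbbp4 probes lie above 0 on both.

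The MTA proteins are alternative scaffolds of NuRD, and their genes gave different ratios. Mta3, whose product is known for its work with BCL6 in B cells, was higher in the deficient cells by both probes on chromosome 17. Probe A_51_P284318 (chr17:83708433-83712806, a range of 4374 bases, far wider than a probe) read 7149 in the deficient and 4345 in the control sample of replicate 1. On replicate 2 it read 7338 and 3570. The mean was 0.88 ± 0.11 (limma adjusted p = 0.0957), or 1.84-fold, with a separate-channel limma adjusted p of 0.0314. Probe A_52_P119393 (chr17:83700958-83701017) read 11380 against 7701 and 12148 against 6182. Its mean was 0.77 ± 0.13 (limma adjusted p = 0.107), or 1.70-fold, with a separate-channel limma adjusted p of 0.0440. For both probes each deficient sample exceeded each control, and the gap between the probes was 0.16 on replicate 1 and 0.06 on replicate 2. Processed signals, Agilent's own correction, gave 0.96 and 0.85.

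Mta1, the founding member, has 1 probe, A_51_P423030 at chr12:113584692-113584751. It read 11637 in the deficient and 10424 in the control sample of replicate 1, and 11157 and 7959 in those of replicate 2. Deficient values were above controls, by 1.12-fold and 1.40-fold, with a mean of 0.32 ± 0.11 (limma adjusted p = 0.191). Mta2, a further scaffold gene of the family, has 2 probes on chromosome 19 whose starts lie 113 bases apart. The brighter, A_51_P164207 at chr19:9019090-9019149, read 26049 against 35128 on replicate 1 and 27077 against 27381 on replicate 2. Its mean was -0.22 ± 0.13 (limma adjusted p = 0.345). The dimmer, A_52_P43972 at chr19:9018977-9019036, read 1036 against 1033 and 1141 against 994, with a mean of 0.10 ± 0.09 (limma adjusted p = 0.489). The Mta2 probes thus had means of opposite sign, and that of the brighter turned to 0.22 with median centring. By the brightest probe of each gene, the ratio of Mta3 exceeded that of Mta1 by 0.40 on replicate 1 and 0.49 on replicate 2. It exceeded that of Mta2 by 0.99 on each. These differences between genes were not tested.

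Chd4, the remodelling ATPase also called Mi-2 beta, has 3 probes on the plus strand of chromosome 6. Probe A_52_P298043 (chr6:125062865-125066126) read 32299 in the deficient and 22068 in the control sample of replicate 1, but 23533 and 28569 on replicate 2. Probe A_51_P454280 (chr6:125079681-125079740) read 3520 against 2339, then 2631 against 2903. Both were thus higher in the deficient sample on replicate 1 and lower on replicate 2, with means of 0.13 ± 0.23 and 0.22 ± 0.21 (limma adjusted p = 0.729 and 0.520). Their ratios differed between arrays by 0.83 and 0.73, and 2.08% and 2.93% of all tested probes differed as much. Without replicate 1 the values were -0.28 and -0.14, and without replicate 2 they were 0.55 and 0.59. Probe A_52_P58281 (chr6:125089248-125094417) read 1838 against 1471 and 1874 against 1415. It was higher in the deficient sample on both arrays, with a mean of 0.36 ± 0.07 (limma adjusted p = 0.117). The data thus give no common direction for Chd4.

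Hdac1 and Hdac2 encode the alternative deacetylases. The probe of Hdac1, A_51_P507380 at chr4:129018567-129018638, read 24083 in the deficient and 31141 in the control sample of replicate 1, and 31651 and 35297 in those of replicate 2. The deficient sample was the lower on each array, at 77.3% and 89.7% of the control, although the groups overlapped across arrays. The mean was -0.26 ± 0.09 (limma adjusted p = 0.187), and it turned to 0.19 with median centring. The Hdac2 probes were A_51_P116007 (chr10:36683065-36683199) and A_52_P46504 (chr10:36684916-36684975). The first read 535 against 561 on replicate 1 and 679 against 607 on replicate 2, and was well above background only in the deficient sample of replicate 2. The second read 514 against 430 and 506 against 483, and was well above background in 0 of 4 samples. No change of Hdac2 was detectable at these signals, which also leave its share of the deacetylase RNA unmeasured.

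Rbbp4 and Rbbp7, which encode the closely related chaperones RbAp48 and RbAp46, were higher in the deficient sample by all 4 of their probes on both arrays. Rbbp4 was brightest by A_51_P307325 (chr4:128811994-128812053). That probe read 59757 in the deficient and 43634 in the control sample of replicate 1, and 60733 and 44681 in those of replicate 2. Both deficient values lay above both controls, and the ratios of 0.45 and 0.44 gave a mean of 0.45 ± 0.07 (limma adjusted p = 0.103), or 1.36-fold. The mean was 0.31 with processed signals, 0.37 after centring on probes of like intensity and 0.99 with median centring, so its size depends on the scaling. Separate-channel limma gave an adjusted p of 0.0459. Probe A_52_P296810 (chr4:128825011-128825070) gave 0.20 ± 0.07 and A_52_P424767 (chr4:128809683-128809742) gave 0.19 ± 0.11 (limma adjusted p = 0.205 and 0.344). Rbbp7, on the X chromosome (A_51_P114385, chrX:158122533-158122592), read 20100 against 17751 and 19002 against 15611, with a mean of 0.23 ± 0.08 (limma adjusted p = 0.177). By brightest probes the ratio of Rbbp4 exceeded that of Rbbp7 by 0.27 and 0.16 on the arrays, a difference that was not tested.

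**Figure D3:**
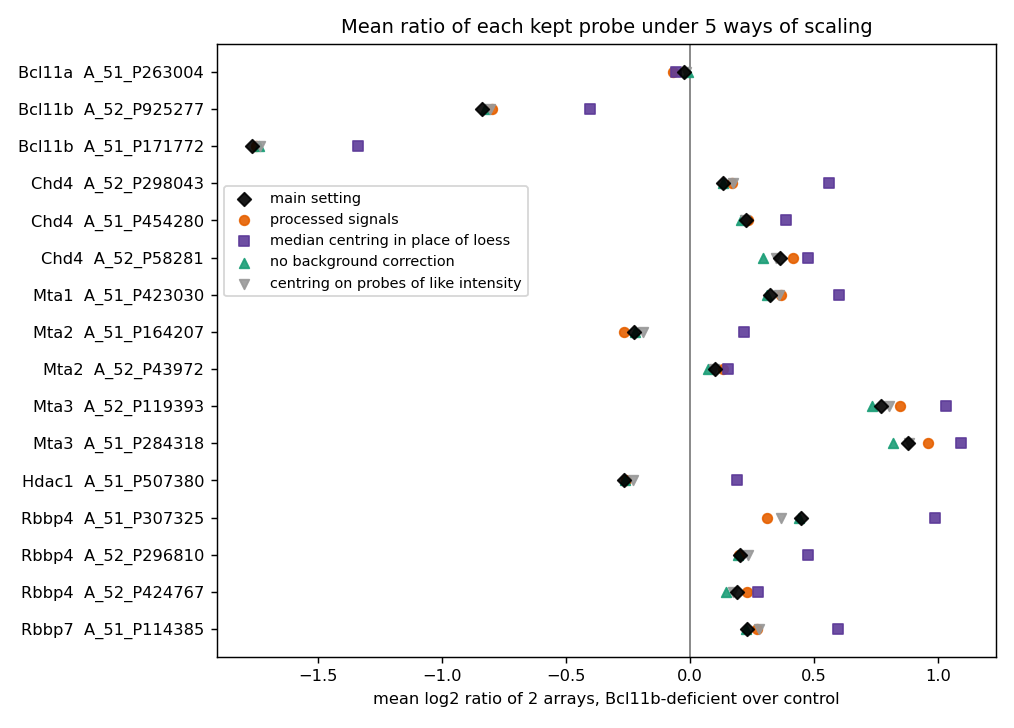
Mean log2 ratio of both arrays for the 16 kept probes under 5 ways of background correction and scaling (symbols). Median centring (squares) moves bright probes upwards and turns Hdac1 and the brighter Mta2 probe to the other side of 0, while the Bcl11b probes stay below 0 and the Mta3 and Rbbp4 probes above it.

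The other NuRD subunits were read by the brightest kept probe of each gene. Over all 14921 genes taken this way, 0% were called by limma, 36.4% were higher and 38.5% lower on both arrays, and 15% were higher and 14% lower at an unadjusted limma p under 0.05. Of 7 other subunit genes 2 were higher and 4 lower on both arrays, with a median of -0.12. Limma and its separate-channel form called 0 of them, and at an unadjusted limma p under 0.05 there were 1 higher (Cdk2ap1) and 1 lower (Mbd2). Cdk2ap1, a small subunit, read 6267 against 4875 and 6775 against 4893 in deficient and control samples, with a mean of 0.42 ± 0.08. Mbd2, the methyl-CpG binding subunit, gave -0.33 ± 0.11, and its alternative Mbd3 gave -0.02 ± 0.08. The linker genes Gatad2a and Gatad2b gave -0.12 ± 0.09 and -0.20 ± 0.10, and turned to 0.16 and 0.02 with median centring. Chd3, the closest relative of Chd4, gave 0.15 ± 0.08, while its 3 other kept probes ranged from -0.10 to 0.36. Chd5, known from neurons, was dim, at 591 and 575 in the deficient and 639 and 640 in the control samples.

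Deacetylases and chaperones of NuRD also serve other complexes. Of 20 genes of the Sin3, CoREST and MiDAC deacetylase complexes 5 were higher and 7 lower on both arrays (median -0.05). Over all genes, 36.4% were higher and 38.5% lower on both arrays. Rcor1, the CoREST scaffold, gave -0.46 ± 0.09 by its brightest probe, while its 2 other kept probes gave -0.13 and -0.12. Kdm1a, the histone demethylase of CoREST, gave -0.35 ± 0.10. With median centring the brightest Rcor1 probe gave -0.06 and Kdm1a 0.07. Sin3b gave 0.34 ± 0.10 by its brightest probe and -0.63 by another, and Dnttip1, of MiDAC, gave -0.21 ± 0.08. Of 16 kept genes of other complexes with RBBP4 or RBBP7, 8 were higher and 4 lower on both arrays (median 0.05). Among these the chromatin assembly genes Chaf1a and Chaf1b gave 0.56 ± 0.08 and 0.34 ± 0.07. The polycomb genes Jarid2 and Phf19 gave -0.53 ± 0.07 and 0.31 ± 0.12. Of 7 kept genes for other histone deacetylases, 3 were higher and 2 lower on both arrays, from -0.20 ± 0.09 for Hdac10 and -0.19 ± 0.10 for Hdac7 to 0.31 ± 0.11 for Hdac6 and 0.35 ± 0.17 for Hdac4. Limma called 0 genes of these lists over all probes. At an unadjusted limma p under 0.05 (15% of all genes higher and 14% lower), the Sin3 list had 1 higher (Sin3b) and 2 lower (Rcor1, Kdm1a). The RBBP4 and RBBP7 list had 1 lower (Jarid2) and 4 higher (Chaf1a, Chaf1b, Aebp2 and Lin54). Aebp2 and Lin54 were named for this count after their values were seen, and the other kept probe of Lin54 gave -0.01. The deacetylase list had 0 in either direction. Of these lists, separate-channel limma called 1 gene, Jarid2 (5.72% of all probes).

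Over all genes, 36.4% were higher and 38.5% lower on both arrays. Of 8 kept genes of other reported Bcl11b partners, 1 was higher and 4 lower on both arrays (median -0.12). The higher one was Nr2f6, an orphan nuclear receptor of the COUP-TF group, at 0.69 ± 0.16. The deacetylase gene Sirt1, the methyltransferase gene Suv39h1 and the acetyltransferase gene Ep300 gave -0.15 ± 0.07, -0.13 ± 0.09 and -0.12 ± 0.08. With median centring they turned to 0.12, 0.06 and 0.02. The 2 other kept probes of Ep300 gave 0.02 and 0.13. Of 7 kept genes for other zinc finger factors that recruit NuRD, 2 were higher and 4 lower on both arrays (median -0.06). Ikzf2, the Helios gene, gave 1.12 ± 0.08 with its 4 other kept probes from 0.48 to 1.04, and Zfpm1, the FOG1 gene, gave 0.69 ± 0.20. Ikzf3, the Aiolos gene, gave -0.37 ± 0.11 and Sall4 -0.10 ± 0.08. Limma called 0 of either list. At an unadjusted limma p under 0.05 (15% of all genes higher and 14% lower) the partners had 1 higher (Nr2f6). The zinc finger factors had 2 higher (Ikzf2, Zfpm1) and 1 lower (Ikzf3). Of both lists, separate-channel limma called 1 gene, Ikzf2 (5.72% of all probes).

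Chromatin assembly factors and Rbbp4 are among the genes known to vary with proliferation, so cell cycle genes were counted beside them. Both arrays gave higher values for 14 of 16 such genes and lower ones for 0 (median 0.44), against 36.4% and 38.5% of all genes. At an unadjusted limma p under 0.05, 11 were higher (15% of all genes). After adjustment limma called 0, and separate-channel limma called 6 (5.72% of all probes). Mcm6 gave 1.08 ± 0.09, Pcna 0.76 ± 0.10, Mcm3 0.75 ± 0.09 and Birc5 0.61 ± 0.08. In that order they gave 0.80, 0.41, 0.83 and 0.46 with processed signals, and 1.68, 1.44, 1.15 and 1.19 with median centring. The median of the list was 0.34 and 0.92 under these settings, so its size depends on the scaling. The part of cell cycle state in the ratios of Rbbp4, Rbbp7 and Mta3 was not tested.

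**Figure D4:**
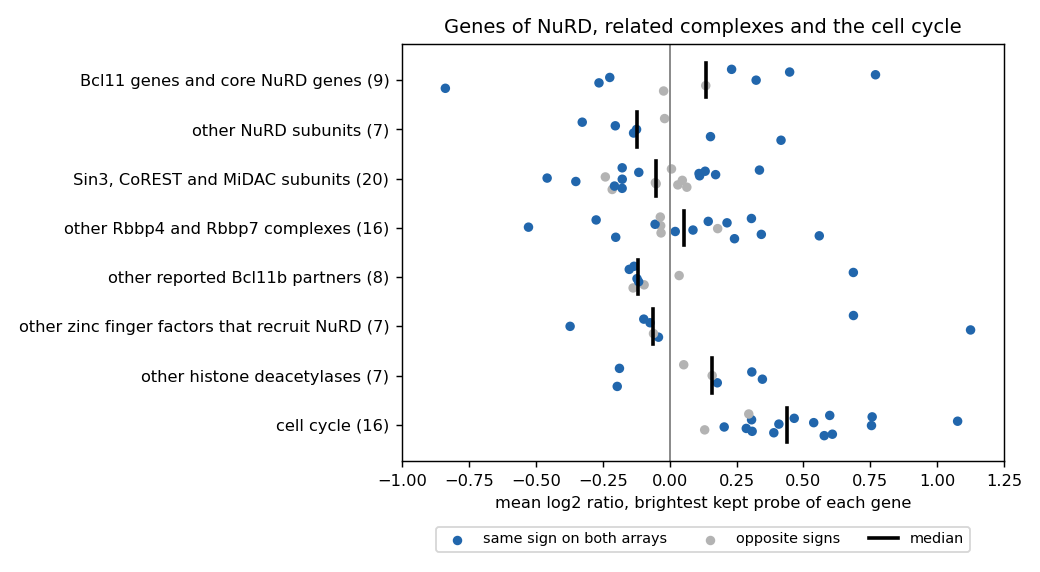
Mean log2 ratio of deficient over control by the brightest kept probe of each gene (points, grey where the arrays differ in sign), with the median of each list (bars) and the number of kept genes in brackets. The cell cycle genes lie above 0, whereas each other list plotted has genes on both sides of it.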

How the data were processed

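Each of 2 Agilent 2-colour arrays was read by the authors with Feature Extraction 9.5.3.1, per the submitters' processing notes and the file headers. The deposited mean and local background signals are uncorrected intensity values, and the processed signals are intensity values corrected for background, spatial trend and dye, per the file headers. The deposited log10 ratio is processed Cy5 over processed Cy3, and the deposited value table matches that log10 ratio within 0.005. Probe positions are mm8, per the file headers.

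Here, signals were corrected by normexp (offset 50) and normalised by loess, with controls and outlier spots at weight 0 (R 4.3.3, limma 3.58.1, statmod 1.5.0). Probes well above background in 1 channel on both arrays were kept, 21539 of 41174. Symbols came from RefSeq by accession (24496 probes), symbol (6234) or synonym (2386), and 8058 kept the array's name. Limma's moderated test of the mean ratio against 0 had 1 residual and 2.46 prior degrees of freedom, so its power is low. Its SE and p-values thus rest more on the spread over all tested probes than on that of the probe itself. They concern these samples only. The test was checked on simulated data. The members and lists were chosen with earlier results of these data known. Every member probe is named, then all other NuRD subunits, and from each further list up to 4 genes of the largest mean ratio with 1 sign on both arrays. Genes of like pattern were not sought, since 2 ratios measure no likeness. Alternatives were processed signals, median centring, no background correction, no filter or a stricter one, separate-channel limma (intraspot correlation 0.363), the value table, 1 row per gene, 1 array alone and, chosen after the data were seen, centring on the running median of 1001 probes of like intensity. Only for separate-channel limma were probe intensities scaled between arrays, by quantiles, before the fit. Precision is limited by the number of arrays. Repeat spots of 1 probe on 1 array had a median SD of 0.04 over 137 probes.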

Additional observations from a re-analysis of the deposited data

How the results depend on the processing

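Over all probes limma called 0 at an adjusted p of 0.05 and 5824 at an unadjusted p of 0.05. It called 30 with processed signals (24 higher, 6 lower), 943 with median centring (822 higher, 121 lower), 1231 with the separate-channel fit (691 higher, 540 lower) and 17 with the value table (13 higher, 4 lower), and 0 without background correction, without the filter, with the stricter filter, with 1 row per gene and with centring on like intensity. Of the 16 kept probes of the Bcl11 and core NuRD genes, 3 were called with median centring (Bcl11b A_51_P171772, Mta3 A_51_P284318 and Rbbp4 A_51_P307325), 4 with the separate-channel fit (the same 3 and Mta3 A_52_P119393), and 0 in the others. Median centring, which does not correct ratios by intensity, shifted the median of all kept probes to 0.12 and reversed Hdac1 (0.19) and Mta2 A_51_P164207 (0.22). With 1 array left out, a value with no test, Bcl11a A_51_P263004 ranged from -0.10 to 0.056, Chd4 A_52_P298043 from -0.28 to 0.55 and Chd4 A_51_P454280 from -0.14 to 0.59. Under every alternative run, with either array alone too, both Bcl11b probes stayed below 0 and those of Mta3, Mta1, Rbbp4 and Rbbp7 above it. No further pairing was added, because each array already pairs a deficient with a control sample and the test of its ratio uses that pairing. Signals of Bcl11a and Hdac2 near those of negative controls limit what their ratios can show.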
